A study of Mus musculus with 2 samples.

Results

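The DNA replication genes described here are 32 mouse genes whose products license, start and copy DNA in S phase, supply its building blocks, or package what has been copied. They were taken by symbol from a list of textbook S phase genes, by a rule that uses no measured value, although earlier results of these data were known when the list was made, and all 32 were found among the 55536 mouse genes of the deposited tables. By role they comprise 9 genes of origin licensing, 4 of origin firing, 9 of synthesis at the fork, 5 of nucleotide supply, 2 cyclins of S phase entry and 3 of chromatin and histone supply. The RNA came from hearts of male B6CASTF1/J mice, an F1 hybrid of C57BL/6J and CAST/EiJ, aged 4 days. Both samples belong to 1 group with no treatment, engineered allele or control beside it, so there is no contrast between conditions. The labels number them as biological replicates 1 and 2 but list the same donor record for both. They are called 2 hearts here, as the labels number them, but the spread between them may be technical, and with n = 2 each SD is itself imprecise.

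Eukaryotic DNA replication begins when the origin recognition complex (ORC), with CDC6 and CDT1, loads rings of the 6 proteins MCM2 to MCM7 onto DNA. At the start of S phase, kinases, CDC45 and the GINS complex turn these rings into active helicases. Polymerases, the sliding clamp PCNA and its loader RFC then copy each strand, while ribonucleotide reductase and thymidylate enzymes keep deoxynucleotides available. Many of these genes are controlled by E2F transcription factors, which the retinoblastoma protein holds back outside S phase. Heart muscle cells of the mouse still synthesise DNA in the first days after birth and then largely leave the cell cycle, and the other cells of the growing heart divide as well.

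Both libraries were deep enough to measure every member. They held 31512596 and 35744013 expected counts on mouse genes, of which the 32 genes took 32123 and 42515. Counts per gene and library ran from 88 to 4431. Cardiomyocyte markers fitted the heart label, with all 12 of 12 expressed and a summed abundance of 40688 TPM (an abundance normalised for transcript length and library size) in replicate 1 and 37884 TPM in replicate 2. Thymus and T cells divide fast and lie close to the heart, but all 12 of their markers stayed under 1 TPM, with sums of 1.09 and 2.27 TPM. Gene coordinates given below are GENCODE M21 positions on mm10. In whole tissue, fewer cells of a type and less RNA per cell cannot be told apart.

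All 32 replication genes were expressed in the 4-day-old heart, with 1 TPM or more in each library. The same held for 53.9% of protein-coding genes and 23.8% of all mouse genes. Their median level was 16.7 TPM, against 12.3 TPM for all expressed protein-coding genes. Together they made up 639.89 TPM in replicate 1 and 704.4 TPM in replicate 2, or 0.0678% ± 0.00455 of mouse-gene TPM (SD, n = 2). By expected counts the share was 0.102% (exact 95% binomial interval 0.101% to 0.103%) in replicate 1 and 0.119% (0.118% to 0.120%) in replicate 2. Such intervals describe counting error alone and hold no variation between samples. Because PCR copies of a molecule are counted as separate reads, they may be too narrow even for that error.

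Levels spanned 39.7-fold from the highest gene to the lowest. The sliding clamp Pcna, the ribonucleotide reductase subunits Rrm2 and Rrm1 and thymidine kinase Tk1 led. The licensing factors Orc1 and Cdc6, the initiation factor Mcm10 and cyclin E1 (Ccne1) were the 4 lowest. The plot of levels by role shows that the hearts lay close together for most genes. The nucleotide enzymes sat high as a group, while the initiation factors Orc1, Cdc6, Mcm10, Gins1 and Cdc45 sat low. Low levels were not shared by all initiation factors, as Cdt1 had a mean of 16.2 TPM. Gins2 had a mean of 15.7 TPM, but only 15.8% of it lay on protein-coding transcripts. Pola1, Ccne2 and Chaf1b, of other roles, lay below Cdc45.

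**Figure D1:**
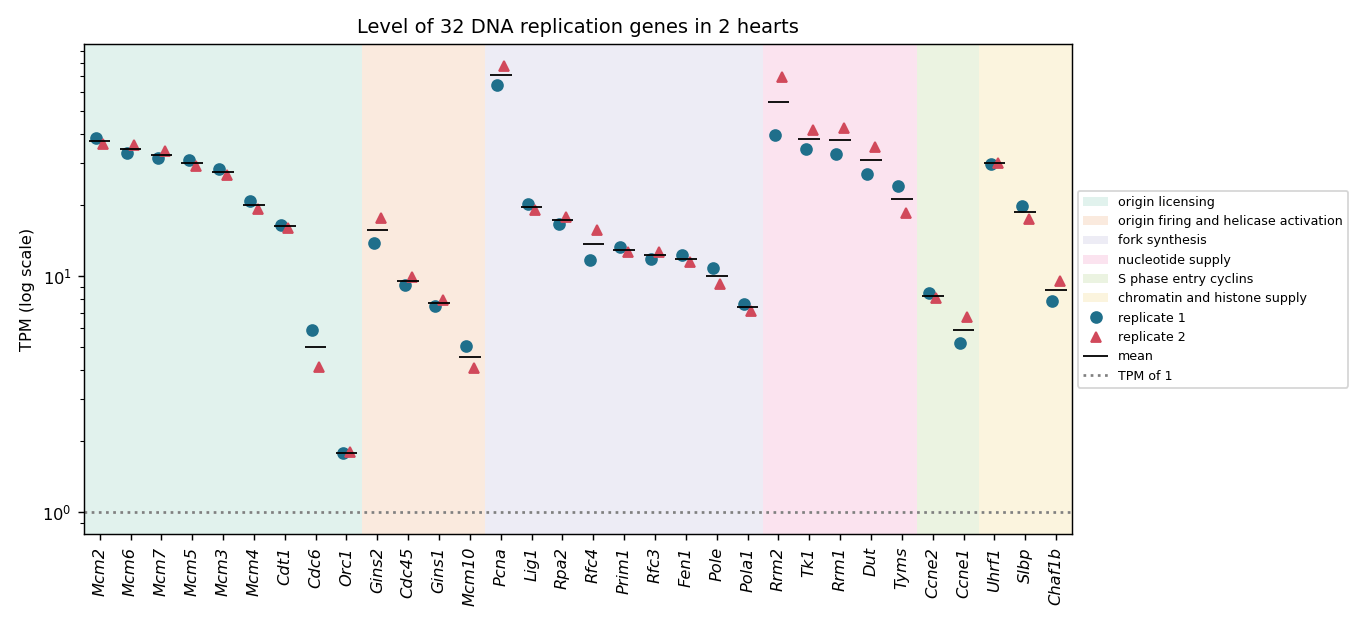
Level of each of the 32 genes (TPM, log axis) in replicate 1 (circles) and replicate 2 (triangles), with the mean as a line, ordered by role and then by level. Pcna stands highest at 70.8 TPM, all 6 of Mcm2 to Mcm7 lie between 19 and 39 TPM in both hearts, and Orc1 is lowest at 1.79 TPM, just above the dotted line at 1.

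Promoter sequences were examined because many of these genes are textbook E2F targets. RefSeq promoters of build GRCm38.p6, 250 bases before to 50 bases after each annotated start, were given for 27 of the 32 genes. They were not used here for Mcm4, Gins1, Gins2, Ccne2 and Pole. The motif searched was TTTGGCGC, TTTGCCGC, TTTCGCGC or TTTCCCGC on either strand, the core bound by E2F proteins. It was present in 11 of 27 promoters (40.7%). The same search found it in 2.6% of 27025 genes with a promoter, in 4.92% of 9292 expressed protein-coding genes, and in 6.24% of the 5003 expressed genes whose promoters hold at least as many CpG pairs as the median replication gene. A list of 52 other origin and fork factors, of which 43 had a promoter, held it in 27.9%. The replication promoters carried 17 matches in all, of which 9 began within 50 bases of the start.

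Mcm6 had the most matches, 3, and Mcm5, Mcm3, Mcm7 and Rfc3 had 2 each. The upstream stretches of Mcm6 and Mcm5 are shown whole because all of their matches lie before the start. Capitals mark the motif, and each strand reads 5′ to 3′ towards the gene.
Mcm6 (GRCm38.p6, chr1:128359706-128359955, minus strand): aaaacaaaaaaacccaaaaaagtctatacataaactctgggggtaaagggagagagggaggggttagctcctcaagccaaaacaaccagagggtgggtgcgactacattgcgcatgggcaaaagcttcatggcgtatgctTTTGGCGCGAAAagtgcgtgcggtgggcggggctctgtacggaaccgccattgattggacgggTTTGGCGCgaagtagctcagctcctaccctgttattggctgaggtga
Mcm5 (GRCm38.p6, chr8:75109259-75109508, plus strand): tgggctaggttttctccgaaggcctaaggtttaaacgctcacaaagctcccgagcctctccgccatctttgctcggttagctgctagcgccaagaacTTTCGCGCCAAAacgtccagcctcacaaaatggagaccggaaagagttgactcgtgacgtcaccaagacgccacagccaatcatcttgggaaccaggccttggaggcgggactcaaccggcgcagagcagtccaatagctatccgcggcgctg
In both stretches a forward and a reverse match overlap, so that 12 capitals in a row hold 2 motifs. In Mcm6 these begin at positions -110 and -106, counted from 1 at the RefSeq start, and a further match begins at -47. In Mcm5 they begin at -153 and -149.

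The other 9 genes with a match are shown as windows of 30 bases, to let the sites be compared across roles.
Mcm3 (chr1:20820266-20820295, minus strand): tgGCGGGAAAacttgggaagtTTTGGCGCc
Mcm7 (chr5:138172030-138172059, minus strand): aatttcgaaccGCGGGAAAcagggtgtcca
Mcm7 (chr5:138171849-138171878, minus strand): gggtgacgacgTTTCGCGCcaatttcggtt
Orc1 (chr4:108579416-108579445, plus strand): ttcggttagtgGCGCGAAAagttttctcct
Cdc6 (chr11:98908002-98908031, plus strand): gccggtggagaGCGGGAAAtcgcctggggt
Cdt1 (chr8:122568035-122568064, plus strand): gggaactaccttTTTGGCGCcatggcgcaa
Rfc3 (chr5:151651195-151651224, minus strand): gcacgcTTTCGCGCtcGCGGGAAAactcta
Lig1 (chr7:13278841-13278870, plus strand): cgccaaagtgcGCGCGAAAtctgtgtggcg
Pola1 (chrX:93632275-93632304, minus strand): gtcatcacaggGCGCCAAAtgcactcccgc
Uhrf1 (chr17:56304117-56304146, plus strand): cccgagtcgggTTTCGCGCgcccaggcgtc
Mcm3 and Rfc3 each hold 2 sites in 1 window, facing opposite ways. Of the 9 licensing genes, 7 had a match, and the exceptions were Mcm2, which had none, and Mcm4. None of the 5 nucleotide supply genes had a match in this window, which says only that these letters are not there.

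Genes with and without the motif overlapped widely in level. The 11 genes with a match had a median level of 19.6 TPM and the 16 without one 17.9 TPM. Orc1, the lowest gene, and Mcm6, the sixth highest, both carry the motif, and Pcna, the highest, does not. Further motifs, chosen after the values had been seen, were the NF-Y box CCAAT (found in 63% of the 27 promoters, against 43.3% of expressed protein-coding genes), the GC box GGGCGG (74.1% against 70.7%) and the CHR element TTTGAA (11.1% against 14%), each on either strand. Genes of G2 and mitosis, a list of 20 of which 17 had a promoter, had the CHR element in 70.6%, the NF-Y box in 88.2% and the E2F motif in 5.88%. None of the 4 motifs contains another, although matches can overlap at their ends. A match is a description of the sequence and not a mapped binding site.

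**Figure D2:**
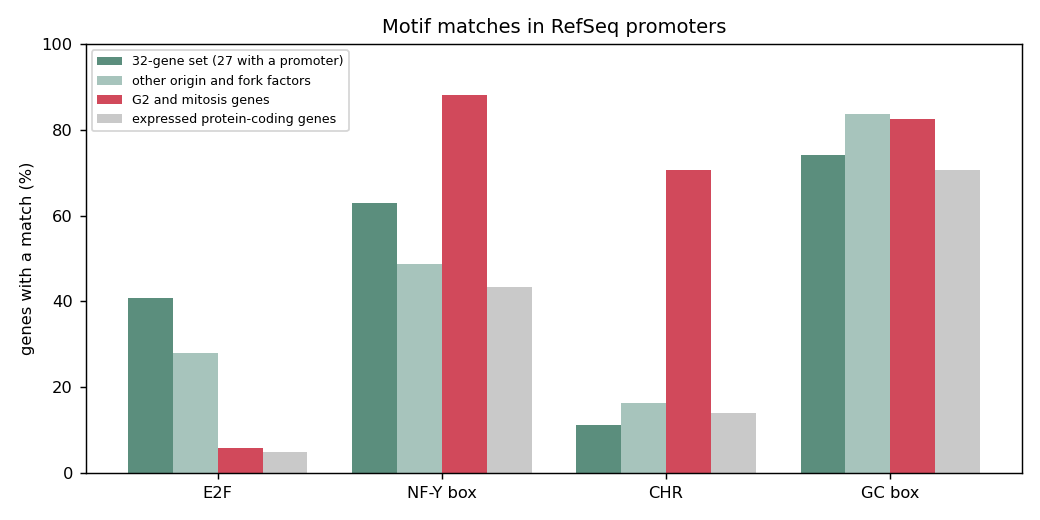
Share of genes whose promoter holds each of 4 motifs (%), for the 27 replication genes with a promoter, 43 other origin and fork factors, 17 G2 and mitosis genes and 9292 expressed protein-coding genes. The E2F motif stands at 40.7% in the replication genes and 5.88% in the G2 and mitosis genes, and the CHR element at 11.1% and 70.6%.

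Among the origin licensing genes, the helicase ring subunits were the highest and Orc1 and Cdc6 the lowest. The 6 ring subunits lay within 1.87-fold of each other by mean TPM. Mcm2 (chromosome 6, 88883474 to 88898780) was highest, at 38.52 TPM in replicate 1 and 36.13 in replicate 2. Of this, 23.1% and 10.9% lay on Mcm2-203, a 273 nt transcript annotated for nonsense-mediated decay, on 38 and 20 counts. The second quantification gave that transcript 0, so the first place of Mcm2 is uncertain. Mcm4 (chromosome 16, 15623897 to 15637400) was lowest at 20.72 and 19.19 TPM. Between them came Mcm6 with 33.09 and 35.82 TPM, Mcm7 with 31.51 and 33.78, Mcm5 with 30.85 and 29.18, and Mcm3 with 28.35 and 26.74. These 6 genes encode the parts of 1 ring in equal numbers, and none fell far from the others. Mcm4 lay below the other 5 in both hearts, while the means of Mcm6 and Mcm7 differed by less than the SD of Mcm6 (1.93 TPM). Under the second quantification of the same libraries the spread was 2.19-fold with Mcm7 highest, and Mcm4 was again lowest. Counts per kilobase of the longest coding transcript gave a spread of 1.54-fold, an alternative chosen after seeing the data. For Mcm6 and Mcm5 that transcript was a minor form, with 6.24% and 15.3% of TPM, so this spread depends on the lengths used.

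The 3 members that load the ring were further apart. Cdt1, which carries the ring to the origin, had 16.45 and 16.02 TPM. Its inhibitor geminin (Gmnn), which blocks reloading after S phase begins, stood 1.97-fold higher at 32.1 TPM ± 0.445 (SD, n = 2), and the log2 ratio of Cdt1 to Gmnn was nearly equal in the hearts at -0.98 and -0.99. Cdc6, an ATPase that joins ORC to load the ring, had 5.91 and 4.13 TPM. Orc1, the ORC subunit whose protein is degraded in S phase, had 1.78 and 1.79 TPM on 88 and 99 counts, the thinnest data in the set. The authors' deposited interval for Orc1 ran from 1.59 to 4.34 TPM in replicate 1, so its level is imprecise.

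By TPM, ORC was among the least even of 9 replication complexes examined subunit by subunit, with 12.7-fold between Orc4 (22.7 TPM ± 2.47) and Orc1. Only CAF-1 was comparable, at 11.9-fold, and in replicate 2 alone it was the wider, at 15-fold against 11.7-fold. Orc3 stood at 22.0 TPM ± 2.74, Orc6 at 12 ± 1.01, Orc2 at 7.53 ± 0.134 and Orc5 at 5.62 ± 0.891. Orc1 was 4.04-fold below Orc2, with log2 ratios of -2.04 and -1.99 in the hearts. The order with Orc4 highest and Orc1 lowest was also that of the second quantification, which put them 17.8-fold apart. By depth-scaled counts per kilobase of the longest coding transcript, Orc1 was again lowest (0.92), but Orc3 (12.65) and not Orc4 (5.63) was highest. That measure also made Rfc2, the highest RFC subunit by TPM, the lowest, at 4.33. RPA, at 11.64 to 15.25, was then more even than MCM2-7, at 15.13 to 23.32. The ranking of complexes and subunits therefore depends on the measure. Mcm8, a relative of the ring subunits that works in recombination and not in licensing, had 2.91 TPM ± 0.368, 12.5-fold below Mcm2.

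**Figure D3:**
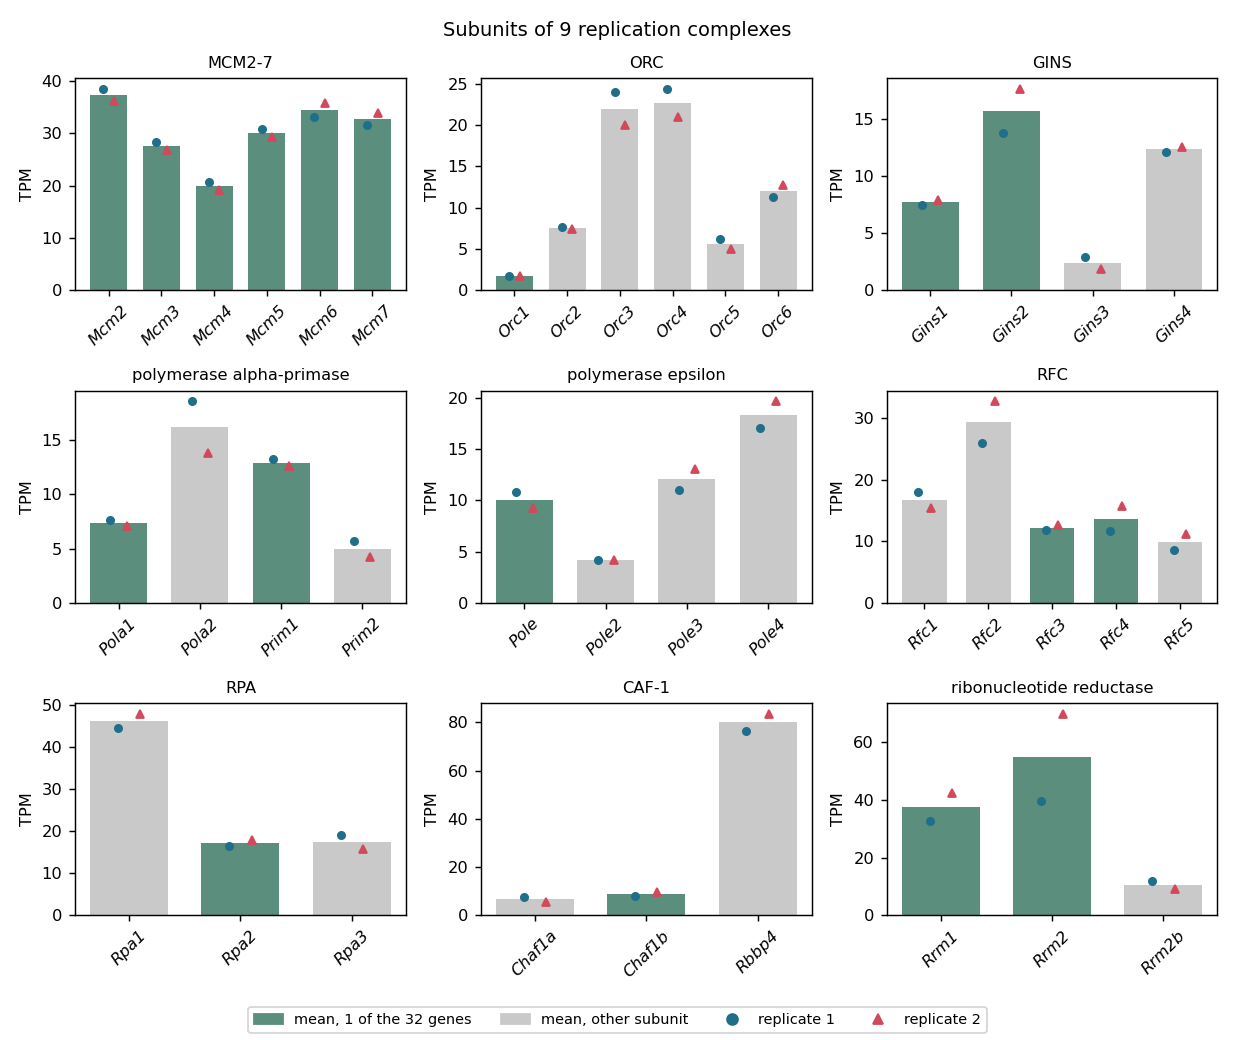
Level of each subunit (TPM, linear axes from 0, each panel with its own scale) of 9 complexes, with bars for the mean, circles for replicate 1 and triangles for replicate 2; green bars are among the 32 genes and grey bars are other subunits. By mean TPM, MCM2-7 is the most even, at 1.87-fold, while ORC spans 12.7-fold with Orc1 lowest and CAF-1 spans 11.9-fold with Rbbp4 highest. By the second quantification, MCM2-7 (2.19-fold) and RPA (2.22-fold) are nearly equal.

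Origin firing was carried by transcripts of moderate to low level. Cdc45, the helicase cofactor, had 9.18 and 9.91 TPM. Gins1 and Gins2, subunits of the GINS complex that completes the active helicase, had 7.48 and 7.92 TPM and 13.77 and 17.62 TPM. Mcm10, a scaffold needed to start unwinding, had 5.04 and 4.06 TPM. Of the remaining GINS subunits, Gins4 lay between the members at 12.3 TPM ± 0.304 and Gins3 lay below both at 2.39 ± 0.757. Gins1 was 3.21-fold above Gins3 on average, with log2 ratios of 1.33 and 2.04 in the hearts. The level of Gins2 needs care, since most of it sits on a short transcript described further on.

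At the fork, the clamp far outran the enzymes it serves. Pcna (chromosome 2, 132249162 to 132253314) had 64.4 and 77.26 TPM on 2172 and 3114 counts. DNA ligase I (Lig1), which seals Okazaki fragments, had 20.08 and 19.09 TPM, and the flap nuclease Fen1, which trims them, had 12.27 and 11.43 TPM. Both enzymes bind PCNA on the lagging strand. A processed pseudogene, Pcna-ps2 (chromosome 19, 9283380 to 9284160), was listed at 8.78 and 12.07 TPM, so reads from near-identical copies may have been divided between it and Pcna. The second quantification also placed Pcna first, at 131 TPM.

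The polymerase subunits lay near the middle or lower end. Prim1, the catalytic primase that lays down RNA primers, had 13.24 and 12.59 TPM. Pola1, the catalytic subunit of polymerase alpha that extends them, had 7.63 and 7.09 TPM, 2.16-fold below its accessory subunit Pola2 (16.2 TPM ± 3.40). Prim1 in turn was 2.59-fold above its partner Prim2 (4.98 ± 1.05). Pole, the catalytic subunit of the leading-strand polymerase epsilon, had 10.78 and 9.22 TPM, 2.34-fold above Pole2 in the first quantification and 1.41-fold in the second. The small histone-fold subunits Pole3 and Pole4 were higher, at 12.1 TPM ± 1.43 and 18.4 ± 1.90. In the clamp loader, Rfc3 had 11.83 and 12.59 TPM and Rfc4 had 11.69 and 15.71, against 29.4 ± 4.85 for Rfc2, and Rfc3 stood 1.37-fold below the large subunit Rfc1. Rpa2, the middle subunit of the single-strand binding protein RPA, had 16.52 and 17.82 TPM, 2.68-fold below Rpa1, with the same log2 ratio of -1.42 in both hearts. Lig1 was 1.54-fold above Lig3, the repair and mitochondrial ligase.

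The nucleotide supply genes were the highest group by median, at 37.6 TPM, compared with 27.5 for licensing, 18.6 for chromatin, 12.9 for the fork, 8.62 for firing and 7.09 for the cyclins. Rrm2 (chromosome 12, 24708241 to 24714146), the S phase radical subunit of ribonucleotide reductase, had 39.55 and 69.85 TPM. Rrm1, the large catalytic subunit, had 32.69 and 42.41 TPM. Rrm2b, which replaces Rrm2 outside S phase and after DNA damage, moved the other way between the hearts, at 11.97 and 9.07 TPM. Rrm2 exceeded Rrm2b by a log2 ratio of 1.72 in replicate 1 and 2.93 in replicate 2, a mean of 5.01-fold. The ratio therefore favoured the S phase form in both hearts, although its size depended on which heart was measured.

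Among the thymidylate enzymes, only the thymidine kinases were compared as such a pair, and the form of dividing cells was again higher. Tk1, the cytosolic thymidine kinase of dividing cells, had 34.49 and 41.63 TPM. Its mitochondrial counterpart Tk2, which works in resting cells, had 4.34 and 4.31 TPM, 8.59-fold lower. Dut, which destroys dUTP before it can enter DNA, had 26.98 and 35.13 TPM. Tyms, which makes dTMP from dUMP, had 24.0 and 18.45 TPM and was the only nucleotide supply member with less in replicate 2. Of 17 other genes of nucleotide metabolism, 16 were expressed, led by the nucleoside diphosphate kinase Nme2 (498 TPM ± 27), and the thymidine phosphorylase Tymp was listed at 0.15 TPM on average.

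The cyclins and the chromatin factors completed the set. Ccne1 and Ccne2, the E cyclins that activate CDK2 at S phase entry, had 5.18 and 6.68 TPM and 8.43 and 8.06 TPM. Ccne2 was the higher in both hearts, by 1.39-fold on average, but the second quantification put the log2 ratio of Ccne1 to Ccne2 at only -0.10. Uhrf1, which brings the maintenance methyltransferase to newly copied DNA, had 29.76 and 30.12 TPM, nearly the same in each heart. Its relative Uhrf2 had 16.3 TPM ± 4.97. Slbp, which binds the stem-loop of histone mRNA, had 19.86 and 17.43 TPM. Chaf1b, the middle subunit of the histone chaperone CAF-1, had 7.86 and 9.55 TPM, beside 6.70 ± 1.57 for Chaf1a and 80.0 ± 5.04 for Rbbp4, a subunit shared with many other complexes.

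Each of 16 gene pairs set side by side kept its direction. The first gene was higher in both hearts in 9 pairs and lower in both in 7, and none was divided. The second quantification gave the same direction in all 16. The closest call was Chaf1b over Chaf1a, with log2 ratios of 0.01 and 0.76, which cannot be told from equality in replicate 1.

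By scaled counts, most replication genes were higher in the replicate 2 library, whereas by deposited TPM the median difference was 0.01. The log2 ratio of TMM-scaled counts (replicate 2 over replicate 1) had a median of 0.20 over the 32 genes, against 0.02 over 13566 filtered protein-coding genes and -0.00 over all 16271 filtered genes. All 32 genes passed the filter on low counts. Of these, 27 were higher in replicate 2, where 52.7% of protein-coding genes and 49.6% of all filtered genes were. With 1 library on each side no test of this difference exists, and it describes these libraries alone. The common biological coefficient of variation over all filtered genes was 15.2%.

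Rrm2 stood apart from the rest. It was 2.02-fold higher in replicate 2 (log2 ratio 1.01, counting interval 0.93 to 1.09), and was the sole member past 1.5-fold higher, where 3.97% of protein-coding genes were. No member was past 1.5-fold lower, where 4.29% were. Rrm1 followed at 0.57, Ccne1 at 0.54 and Dut at 0.53. At the other end, Cdc6 had -0.47 (413 and 322 counts), Tyms -0.41 (666 and 542 counts), Slbp -0.12 and Ccne2 -0.01. Slbp had 756 counts in each library, so its negative ratio comes from the scaling for depth. The counting interval lay above 0 for 18 genes, against 26.1% of protein-coding genes, and below 0 for 2, against 21.5%.

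The difference was uneven between the roles. The median log2 ratio was 0.53 for nucleotide supply, where 4 of 5 genes were higher, and this group held 3 of the 4 largest ratios. Licensing and fork synthesis each had a median of 0.10 with 8 of 9 higher, firing 0.25 with 4 of 4, and chromatin 0.25 with 2 of 3. By deposited TPM the counts for licensing and fork synthesis were 3 of 9 (median -0.08) and 4 of 9 (median -0.07), while nucleotide supply again had 4 of 5 (median 0.37). Within the MCM ring the ratios ran from 0.03 for Mcm4 to 0.28 for Mcm2. The 52 other origin and fork factors, all expressed at a median of 12.4 TPM, were nearly level, with a median of 0.03 and 28 of 52 higher. The median was -0.12 for other nucleotide metabolism (7 of 16 higher), -0.05 for 10 replication checkpoint genes (3 higher) and 0.03 for 26 S phase regulators (15 higher). No gene of the fork factor, nucleotide metabolism or checkpoint lists was past 1.5-fold in either direction.

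**Figure D4:**
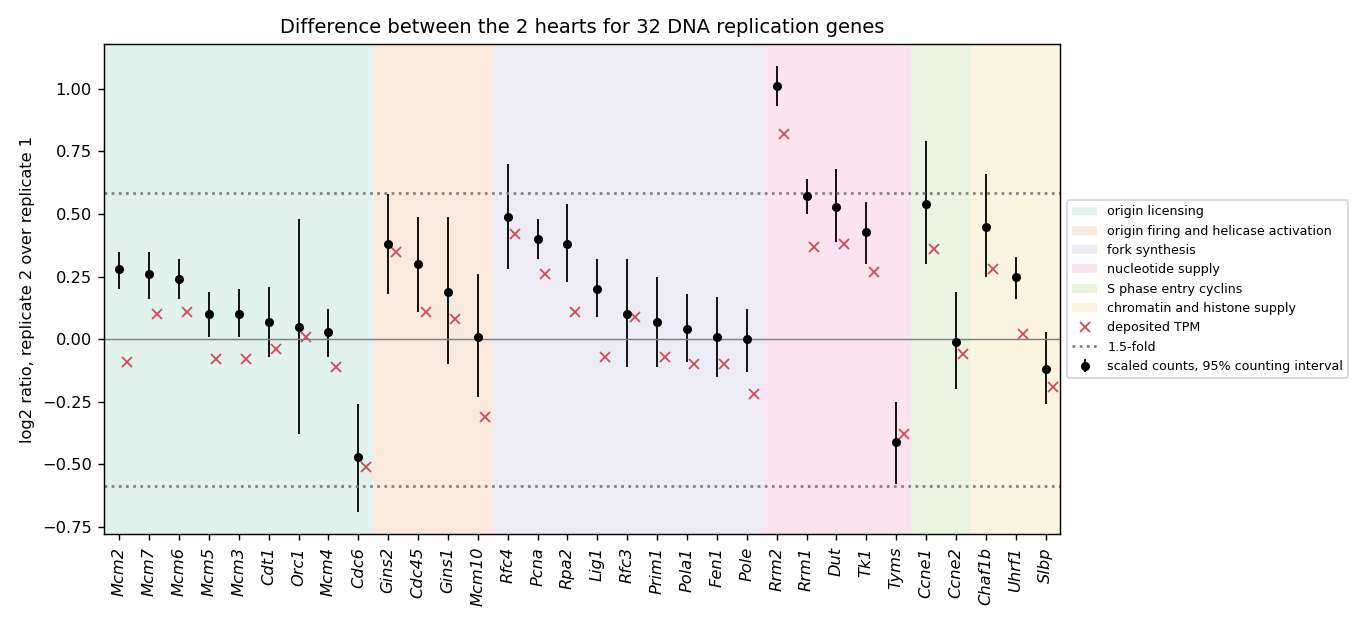
Log2 ratio of replicate 2 over replicate 1 for each gene, from scaled counts with 95% counting intervals (points and bars) and from deposited TPM (crosses), by role; dotted lines mark 1.5-fold. Rrm2 alone lies past the line, at 1.01, while Cdc6 and Tyms are the only genes whose intervals lie wholly below 0, and most crosses sit under their points.

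How a ratio was scaled mattered for the count of higher genes. By deposited TPM, 17 of 32 genes were higher in replicate 2, where 31.5% of protein-coding genes were, and the member median was 0.01. The median TPM ratio was -0.13 over all filtered genes and -0.11 over protein-coding genes, so the member median was again above both. The licensing (-0.08) and fork synthesis (-0.07) medians lay close to that of protein-coding genes, and nucleotide supply (0.37) lay furthest above it. There were 10 genes higher by counts and lower by TPM, among them Mcm2 (0.28 by counts, -0.09 by TPM), Mcm3, Mcm5 and Lig1. Where the authors' TPM intervals, whose level is not stated, did not overlap, replicate 2 was higher for 5 genes (Pcna, Rrm2, Rrm1, Tk1 and Dut; 5.57% of protein-coding genes) and lower for Tyms and Cdc6 (17.8%). Those 7 genes had the same direction under counts, TPM and the second quantification.

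Mitotic, erythroid and fibroblast transcripts were higher in replicate 2 as well. All 20 G2 and mitosis genes were higher in replicate 2, with a median log2 ratio of 0.46 and 7 past 1.5-fold, led in level by Top2a (58.62 and 72.9 TPM) and Cenpa (50.1 and 59.2). Among the marker lists, erythroid markers differed most. All 8 that passed the filter were higher in replicate 2, with a median of 1.81, and their summed level was 1414 TPM in replicate 1 and 5297 in replicate 2. Of 11 matched erythroid genes none was at 0 in both hearts, though Klf1, Epb42 and Hemgn were each under 1 TPM. Fibroblast markers had a median of 0.46, with 11 of 12 higher and summed levels of 1751 and 2305 TPM, and none at 0. Cardiomyocyte markers (median -0.02, 6 of 12 higher) and endothelial markers (-0.02, 6 of 12, summed 711 and 617 TPM) were level by counts. Macrophage markers had a median of 0.19, with 8 of 12 higher, and summed to 53.3 and 51.7 TPM. None of the genes in these 3 lists was at 0 in both hearts. The part of the erythroid, fibroblast and macrophage RNA in the higher replication transcripts was not tested.

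Among regulators of S phase, 3 of 26 were past 1.5-fold higher in replicate 2 and are named for that reason, after their values were seen. Cyclin A2 (Ccna2), the CDK2 partner of S phase, had 28.67 and 40.06 TPM and a log2 ratio of 0.72. The CDK inhibitor Cdkn1a had 16.13 and 23.96 TPM (0.71), and the activator E2f1 had 10.79 and 14.95 TPM (0.60). The members with the 8-base E2F motif were not those that differed most. Their ratios ran from -0.47 to 0.26 with a median of 0.10. The 16 without it ran from -0.41 to 1.01 with a median of 0.39. This outcome depends on the form searched. A 7-base form, which drops the first T, was also found in Rrm2 and Rrm1 but not in Ccne1 or Dut. Whether E2F factors had a part in the difference was not tested.

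Most of the level of the replication genes lay on protein-coding transcripts. The median coding share was 90.9% of a gene's TPM, against 89.1% for expressed protein-coding genes, and 96.4% of its counts. It was at least 90% in 17 genes and was 100% in Mcm4 and Fen1. The share was higher in replicate 2 in 21 of 32 genes, where 52.3% of expressed protein-coding genes were. In 28 genes the hearts shared their leading transcript, and in 26 both quantifications also did. No share over all expressed genes is given here for these counts.

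The coding share was under 50% in 4 of 32 genes, and in 8.84% of expressed protein-coding genes. In Gins2 it was 15.8%, and Gins2-204, a 511 nt transcript annotated as retaining an intron, held 71.2% ± 1.90 of the TPM on 100 and 146 counts. The full-length Gins2-201 (3900 nt) held 60.1% of the counts. In Tyms the coding share was 31.9%, and Tyms-205, annotated for nonsense-mediated decay, led with 37.2% ± 1.14. The second quantification gave Tyms-205 only 12.3% and a coding share of 63.1%. In Mcm10 (43.8%) the leading Mcm10-201 held 28.0% ± 8.81 and retained-intron transcripts 48.7% together. In Lig1 (40.6%) the hearts disagreed: Lig1-209, a processed transcript, held 8.21% in replicate 1 and 52.4% in replicate 2, while the second quantification gave it 0.549% and the coding share 81.0%. By counts the coding share was over 50% in Gins2 and Mcm10 (73.6%) but not in Lig1 (42.5%) or Tyms (39.5%). The summed TPM of these 4 genes is therefore not a measure of their coding RNA.

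**Figure D5:**
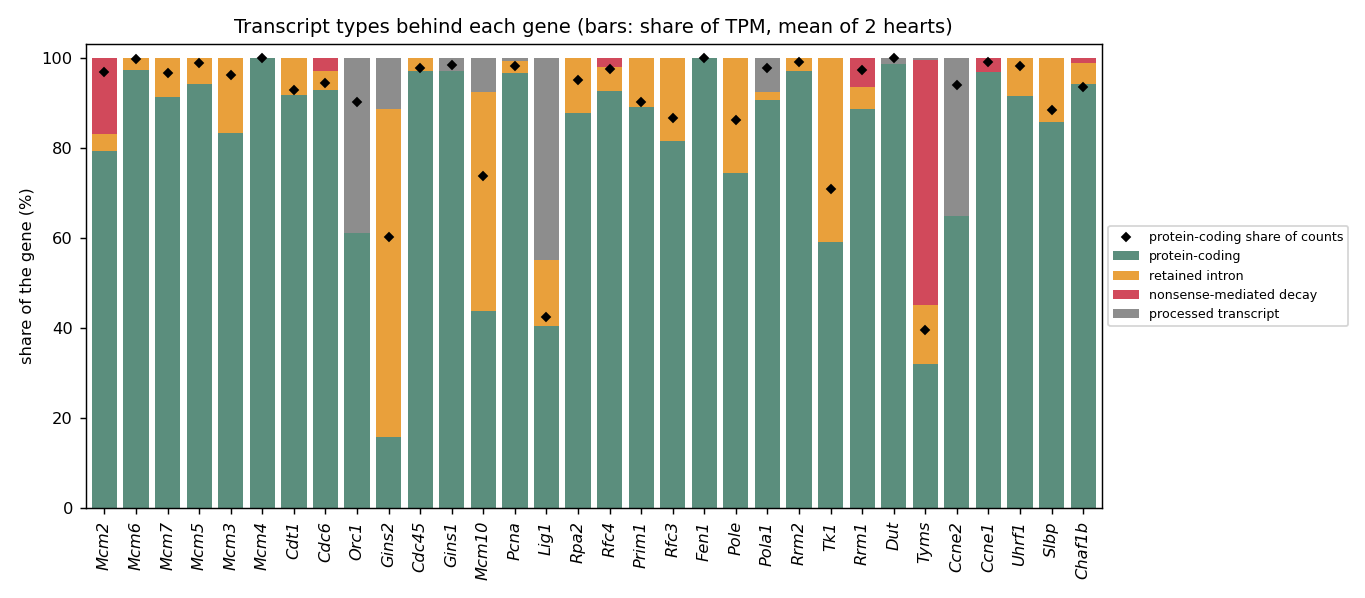
Share of each gene's TPM (%, stacked bars, mean of 2 hearts) on protein-coding, retained-intron, nonsense-mediated decay and processed transcripts, with diamonds for the coding share of counts. Gins2, Tyms, Lig1 and Mcm10 have green bars under 50%, and the diamonds stand above the green bars in most genes.

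Transcript choice was also unstable between near-equal coding forms. Cdc45-201 held 43.0% and 57.3% of Cdc45, changing places with Cdc45-202 at 50.3% and 38.8%. Fen1-202 and Fen1-201 did the same, at 46.0% and 42.6% on average, as did Slbp-201 (49.3% and 35.5%) and Slbp-203 (25.4% and 36.9%). Ccne2-202 led Ccne2 with 39.7% but was given 0 by the second quantification, which placed 75.1% on Ccne2-207. Pole-201 led Pole with 46.4%. Dut was steadier: Dut-202 held 89.5% and 90.4% and Dut-201 8.49% and 8.91%. Some swapping forms differ in length, as Cdc45-201 has 2143 nt and Cdc45-202 has 1747 nt. The effect of these swaps on the gene totals was not tested. Statements on isoforms of Cdc45, Fen1, Slbp, Ccne2 and Lig1 are not supported by both hearts and both quantifications.

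The 2 quantifications ranked the genes alike at both ends, with Pcna and Rrm2 first and Orc1 last in each. The second gave a higher mean for 31 of 32 genes, with a median ratio of 1.31, beside 1.35 for all expressed protein-coding genes. It was over 1.5-fold higher in both hearts for 6 of 32 genes (Pcna, Chaf1b, Mcm7, Rfc4, Rrm1 and Dut), where 21.3% of expressed protein-coding genes were. For Pcna it placed 42.7% on the 589 nt Pcna-203, which held 0.839% in the first. Overlapping neighbours add a further limit, since how the counting used strand is not stated. Of the 32 genes, 15 overlap another annotated gene and 9 a protein-coding one, on the opposite strand except for Cdt1 and Gm20388. The share of all genes with such an overlap is not given here, so these counts are not read as particular to the set. The neighbour outweighed the member for Rfc4 (309 and 471 counts beside 3694 and 3551 for Eif4a2), for Gins2 beside Gse1, for Cdc45 beside Ufd1 and for Ccne2 beside Ints8, so the levels of these 4 genes are uncertain. It was close to the member for Fen1 (632 and 691 counts beside 589 and 726 for Tmem258) and Mcm7 (1692 and 2190 beside 1662 and 1717 for Cops6), and the same limit applies there.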

How the data were processed

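Total RNA of 2 heart samples, with the same donor record, was sequenced from stranded libraries with ribosomal RNA reduced, 300 ng of RNA and ERCC spike-ins each, per the labels. Expected counts and TPM per gene and transcript were made by the authors against mm10 and GENCODE M21, with RSEM's column names per the file headers. Estimated counts and TPM of a second quantification, deposited by the authors per transcript under kallisto's column names, were summed per gene. Aligner settings are not given in the sources used here, and the level of the TPM intervals is not stated.

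Counts were rounded, scaled by TMM and filtered with filterByExpr in edgeR 4.0.16 (R 4.3.3, prior count 2), with DESeq2 1.42.0 size factors as an alternative. The 96 spike-ins and 26248 rows that name no gene stayed out of library sizes. For log ratios 0.1 was added to TPM. Motifs, transcript shares and exact binomial intervals (95%) used Python 3.11.15 with pandas 2.3.3 and SciPy 1.17.1. The ratio step was tested on simulated data. No test across samples was run, since 1 group of 2 libraries holds no contrast.

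Named were all 32 genes, both genes of 16 pairs, the leading genes of each further list and leading transcripts that hold under 50% or change. Not every gene that meets this rule is printed, and protein sequences were not used here. The genes, lists and pairs were chosen with earlier results of these data known. Of 229 listed genes 228 were matched. The alternatives were other scalings, filters, thresholds, the second quantification and leaving out each heart.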

Additional observations from a re-analysis of the deposited data

How the results depend on the processing

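The count of 32 expressed genes held under the second quantification, rescaling, either heart alone and a threshold of 0.5 TPM, and was 29 at 5 TPM. The median level was 22.1 TPM by the second quantification, 37.8 TPM after rescaling to nuclear protein-coding genes, and 16.5 to 17.5 TPM with each heart left out. The share of mouse-gene TPM was 0.0953%, 0.152% and 0.0646% to 0.0711% in the same settings, and 0.110% by counts. The spread of Mcm2 to Mcm7 was 2.19-fold by the second quantification, 1.54-fold by counts per kilobase and 1.86 to 1.88-fold with each heart left out. The median log2 ratio between hearts was 0.13 by library size alone and 0.01 by deposited TPM with either pseudocount, where 17 genes were higher in replicate 2. Genes over 1.5-fold higher numbered 2 with spike-in scaling (Rrm2 and Rrm1) and 3 by the second quantification (Rrm2, Ccne1 and Dut). Under the main scaling 10 were over 25% higher. No share over all genes is given here for these counts. The coding share was 96.4% of counts and 89.3% to 91.9% of TPM with each heart left out. Within the 150 bases nearest the start, the E2F motif was found in 7 of 27 promoters (25.9%), against 2.71% of expressed protein-coding genes. With the 7-base form it was found in 18 (66.7%), against 20.2%. The shares of counts and the counts per kilobase were alternatives chosen after seeing the data. Rrm2 stayed past 1.5-fold higher under every scaling, filter and quantification tried (log2 ratios of 0.81 to 1.06), and the cause of each shift was not tested. No paired analysis was possible because both libraries belong to 1 group. With 2 libraries, the depth limits Orc1 most, at 88 and 99 counts.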

Other observations

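The E2F family, whose motif was searched in the promoters, was present in the newborn heart in all 8 of its members. The following genes outside the rule for named genes were chosen after their values were seen. E2f6, a repressor that lacks the retinoblastoma-binding part, was the highest at 23.3 TPM ± 2.70 (SD, n = 2), followed by the repressor E2f4 at 13.8 ± 1.99 and the activator E2f1 at 12.9 ± 2.94. E2f3 stood at 7.75 ± 0.0495, the atypical repressors E2f8 and E2f7 at 7.04 ± 0.502 and 6.95 ± 0.997, and E2f2 and E2f5 at 2.67 ± 0.304 and 2.31 ± 0.559. The dimer partner Tfdp1 (35.5 ± 1.28) was above every E2F gene, and Tfdp2 had 15.8 ± 1.66. The pocket proteins that restrain E2F were close to each other, with Rbl1 at 9.35 TPM ± 0.113, Rbl2 at 8.81 ± 1.27 and Rb1 at 8.05 ± 1.37.

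Regulators of origin firing outside the 32 genes ranged widely. Of the kinase pair that triggers firing, Cdc7 had 4.95 and 2.85 TPM and its activator Dbf4 had 8.31 and 9.68 TPM. Cdc7 was thus lower in replicate 2 (log2 ratio -0.47, as for Cdc6) while Dbf4 was higher (0.37). The firing factors Ticrr and Recql4 were among the lowest of the other origin and fork factors, at 2.84 TPM ± 0.785 and 1.19 ± 0.0354. The histone chaperone FACT, which travels with the fork, was higher, with 45.3 ± 0.297 for Ssrp1 and 20.1 ± 0.332 for Supt16.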
